A study of Mus musculus with 12 samples.

Results

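The oligodendrocyte precursor genes described here are known markers of these cells and of their first committed progeny, matched by symbol to Ensembl identifiers: Pdgfra, Cspg4, Olig1, Olig2, Sox10, Gpr17, Ptprz1, Vcan and Lhfpl3. They are 9 of the 55487 genes in the count files, and all 9 passed the filter on low counts in every comparison. RNA was sequenced from 12 male mice in 4 groups of 3. In the knockouts exon 7 of Auts2, a regulator of brain development, had been removed by Cre from both copies of a floxed allele (Auts2-ex7fl/fl, Auts2tm1.1Dare). At postnatal day 0 (P0) the tissue was forebrain, from knockouts made with Cmv-cre, a line active throughout the body, and from wild-type BL6 littermates. At postnatal day 14 (P14) the tissue was hippocampus, from knockouts made with Nes-cre, a line active in neural progenitors and their descendants, and from controls labelled auts2-ex7-fl-het. The labels do not say whether the P14 controls carried Nes-cre, so whether 1 of their alleles was inactivated is not known. Cells that do not come from the neural lineage, such as microglia and endothelium, keep exon 7 in a Nes-cre knockout.

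Oligodendrocyte precursors divide throughout the developing brain and later become the cells that wrap axons in myelin. PDGF ligands from neurons and astrocytes act on their receptor Pdgfra to drive division and survival, and the transcription factors Olig1, Olig2 and Sox10 hold the lineage's identity. As precursors commit, they lose Pdgfra and Cspg4, pass through a stage marked by the receptor Gpr17, and then switch on myelin genes. In the forebrain the first precursors arise ventrally before birth, and myelin forms in the weeks after it. Several of the genes are shared with other cells: Ptprz1, Vcan and Olig2 are also used by progenitors or astrocytes, Pdgfra by meningeal fibroblasts, and Cspg4 by pericytes.

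The genes lie on 7 chromosomes of GRCm38 and were matched to GENCODE. Pdgfra (ENSMUSG00000029231) is at chr5:75152292-75198215 on the plus strand, and Lhfpl3 (ENSMUSG00000106379) at chr5:22746059-23275597 on the plus strand, 56.2 and 108.2 Mb before Auts2 on the same chromosome. Olig1 (ENSMUSG00000046160, chr16:91269772-91271933) and Olig2 (ENSMUSG00000039830, chr16:91225457-91228677) are neighbours on the plus strand of chromosome 16. Cspg4 (ENSMUSG00000032911) is at chr9:56865033-56899870 and Ptprz1 (ENSMUSG00000068748) at chr6:22875502-23052916, both on the plus strand. Sox10 (ENSMUSG00000033006, chr15:79154908-79165240) and Vcan (ENSMUSG00000021614, chr13:89655312-89742509) are on the minus strand, as is Gpr17 (ENSMUSG00000052229). Gpr17 lies inside Lims2, which runs on the other strand, and the counting used no strand, so reads from this stretch cannot be assigned to one of the 2 genes with certainty. Lims2 itself had at most 38 counts in a P0 library and 328 in a P14 library, against at least 197 and 3220 for Gpr17. Counts of the other genes that overlap a member reached at most 45 in any library.

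RefSeq promoter windows on GRCm38.p6 were given for 6 of the 9 genes, and they were searched for the E-boxes CAGCTG and CAGATG, the letters bound by basic helix-loop-helix factors such as Olig1 and Olig2, and for the SOX core letters ACAAAG and ACAATG. Both strands were read, from 250 bases before to 50 bases after the start. Of these, 3 held a match, and their 250 bases before the start are shown because these are the members in which letters of the lineage's own factors could be placed. Capitals mark the match.
Pdgfra, chr5:75152001-75152250, plus strand: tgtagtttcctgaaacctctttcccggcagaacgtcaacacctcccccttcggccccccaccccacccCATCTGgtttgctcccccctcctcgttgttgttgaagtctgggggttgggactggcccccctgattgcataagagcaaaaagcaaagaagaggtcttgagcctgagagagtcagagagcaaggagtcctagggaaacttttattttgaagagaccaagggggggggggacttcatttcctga
Olig2, chr16:91225300-91225549, plus strand: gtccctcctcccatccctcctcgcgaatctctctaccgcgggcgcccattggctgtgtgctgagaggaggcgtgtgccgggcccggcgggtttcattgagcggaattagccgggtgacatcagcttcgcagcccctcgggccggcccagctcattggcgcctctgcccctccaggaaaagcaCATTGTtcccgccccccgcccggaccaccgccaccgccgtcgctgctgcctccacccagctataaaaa
Lhfpl3, chr5:22745804-22746053, plus strand: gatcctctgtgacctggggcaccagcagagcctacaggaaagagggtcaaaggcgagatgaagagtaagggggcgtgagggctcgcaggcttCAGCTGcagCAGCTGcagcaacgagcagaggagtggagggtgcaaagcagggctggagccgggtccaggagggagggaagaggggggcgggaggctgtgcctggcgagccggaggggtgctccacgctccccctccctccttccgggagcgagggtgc
In Pdgfra the match was CAGATG read on the minus strand, from -182 to -177 relative to the start. In Olig2 it was ACAATG on the minus strand, from -68 to -63. Lhfpl3 held CAGCTG, which reads alike on both strands, from -158 to -153 and again from -149 to -144, and the windows of Cspg4, Ptprz1 and Vcan held none of the letters. These hexamers are frequent: CAGCTG stood in 16.3%, CAGATG in 17.15%, ACAAAG in 18.71% and ACAATG in 12.57% of 32851 windows, and at least one of them in 50.2%. A match is a description of the letters and not of a bound site.

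Total counts lay between 11247150 and 16796797 per P0 library and between 16830720 and 23340621 per P14 library, so the lowest count of any member in a library was 111, for Cspg4 in a P0 knockout. Levels are CPM, the counts of a gene as a share of its library, with library sizes scaled by the trimmed mean of M-values. Fold changes, their SE and adjusted p come from edgeR's quasi-likelihood test over all genes with Benjamini-Hochberg adjustment, and a gene was called at an adjusted p under 0.05. The 6 P0 libraries carry library numbers from 2 series, 1407 to 1410 and 1415 to 1416; replicate 3 of each genotype is in the second series and was sequenced more deeply. Nothing in the labels places the replicates in separate litters, so p-values measure the spread between these mice. In whole tissue, fewer precursor cells and less RNA per precursor cannot be told apart. Auts2 itself was at 181 ± 11.96 CPM in P0 knockouts and 162 ± 13.7 in wild types, and at 76.9 ± 9.29 and 94.9 ± 7.41 CPM in P14 knockouts and controls (SD, n = 3 each). Neither difference was called (adjusted p 0.362 and 0.111), and gene counts sum all isoforms, so they do not test the loss of exon 7.

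The control mice give the levels of the 9 genes without the knockout. Per kilobase of exon and on a scale shared by all 12 libraries, Olig1 was the most abundant member in the P0 wild-type forebrain at 46.6 ± 2.87 CPM per kb, followed by Ptprz1 at 39.95 ± 2.7 (SD, n = 3 each). Olig2 at 16.0 ± 1.30, Lhfpl3 at 12.9 ± 1.66 and Vcan at 11.0 ± 1.30 CPM per kb formed a middle group. Pdgfra at 6.81 ± 0.654 and Gpr17 at 5.61 ± 1.57 CPM per kb had overlapping ranges, and Sox10 at 3.73 ± 0.151 and Cspg4 at 1.15 ± 0.0413 were the lowest. The ranges of Lhfpl3 and Vcan overlapped too, and no other neighbours in this order had overlapping ranges.

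In the P14 control hippocampus the order was different. Olig1 was again highest, at 92.6 ± 2.31 CPM per kb. Gpr17 came next at 40.1 ± 4.64 and overlapped Ptprz1 at 34.4 ± 5.24 CPM per kb. Olig2 at 18.5 ± 1.02 and Sox10 at 16.1 ± 1.32 followed without overlap. Lhfpl3 at 12.6 ± 0.237 and Pdgfra at 11.0 ± 1.29 overlapped, with Vcan at 3.28 ± 0.292 and Cspg4 at 2.37 ± 0.223 CPM per kb at the bottom.

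**Figure D1:**
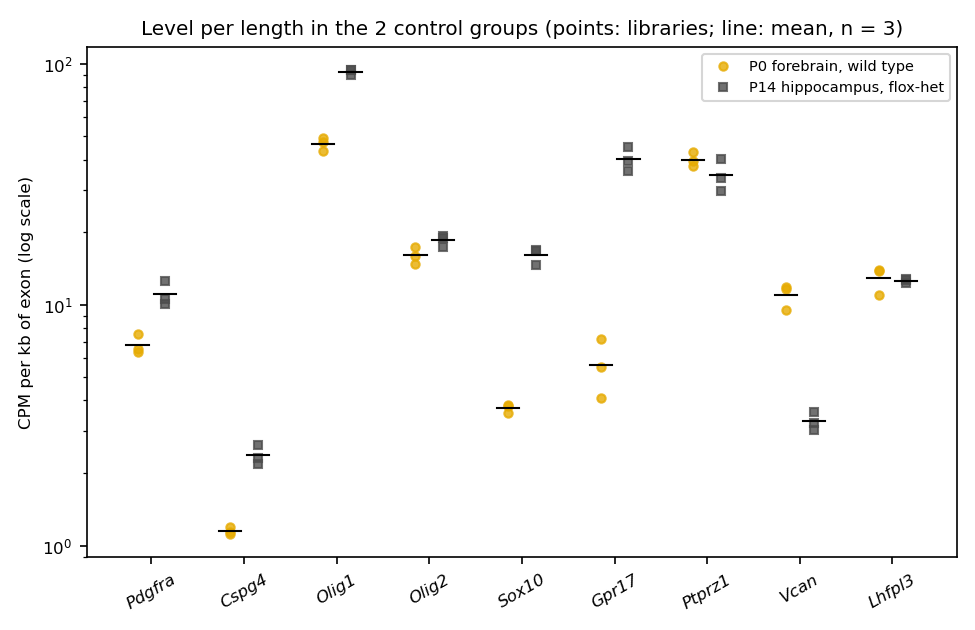
Level of each oligodendrocyte precursor gene in the 2 control groups, in CPM per kilobase of exon on a log axis; points are mice and lines are means of 3. Gpr17 and Sox10 are higher and Vcan lower in the P14 hippocampus, while Olig2, Ptprz1 and Lhfpl3 sit at similar levels in both.

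Between these control groups 6 of the 9 genes were called, 5 higher and 1 lower in the P14 hippocampus, where 64% of all 18189 genes tested were called, 32.3% higher and 31.7% lower. Gpr17, the receptor of committed precursors, was 7.22-fold higher (log2 fold change 2.85, SE 0.17, adjusted p 1.12e-08). Sox10, which directs myelin gene expression, was 4.31-fold higher (2.11, SE 0.11, adjusted p 1.44e-13). Cspg4, the NG2 proteoglycan of the precursor surface, was 2.06-fold higher (adjusted p 1.07e-07), Olig1 1.99-fold (adjusted p 1.60e-09) and Pdgfra 1.62-fold (adjusted p 1.61e-06). Vcan, a secreted hyaluronan-binding proteoglycan, was lower, at 0.298 times the P0 level (log2 fold change -1.75, SE 0.10, adjusted p 1.00e-12). Olig2 differed by 0.21 on the log2 scale (95% interval 0.01 to 0.41, adjusted p 0.0612) and Ptprz1 by -0.21 (-0.42 to -0.01, adjusted p 0.0676), neither called. Lhfpl3 differed by -0.03 (-0.27 to 0.22, adjusted p 0.851). Tissue, age and control genotype change together between these groups and cannot be told apart.

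Counts of one member over another in the same library, which do not depend on scaling, also differed between the contexts. Olig1 per Olig2 ran from 2.04 to 2.65 over the 6 P0 libraries and from 3.66 to 4.63 over the 6 P14 libraries. Sox10 per Olig2 was 0.247 to 0.330 in the P0 libraries and 0.929 to 1.18 in the P14 libraries. Genes of later stages were higher in the P14 controls as well: 16 of 16 myelin genes were called higher with a median log2 fold change of 5.32, and of 15 genes of committed and premyelinating cells 12 were called higher and 2 lower, with a median of 2.36. Of 22 other precursor genes 11 were called higher and 8 lower. The ganglionic eminence progenitor markers were lower for 9 of 9, with a median of -2.33, beside a median of -0.004 over all genes.

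In the P0 forebrain the fitted fold change of all 9 genes was below 0 in the Cmv-cre knockouts, but no member passed the test after adjustment over 16176 genes, where 0.909% of genes were called. The median log2 fold change of the 9 was -0.27, beside -0.000337 over all genes tested, of which 50.1% were below 0. In 6 of the 9, Gpr17, Olig1, Ptprz1, Lhfpl3, Cspg4 and Olig2, every knockout library was below every wild-type library, a pattern shown by 11.5% of genes. An unadjusted p under 0.05 with a lower level was reached by 5 of the 9, against 9.17% of genes. DESeq2 called Olig1, Gpr17 and Ptprz1, 3 of the 9, and 2.36% of all genes.

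**Figure D2:**
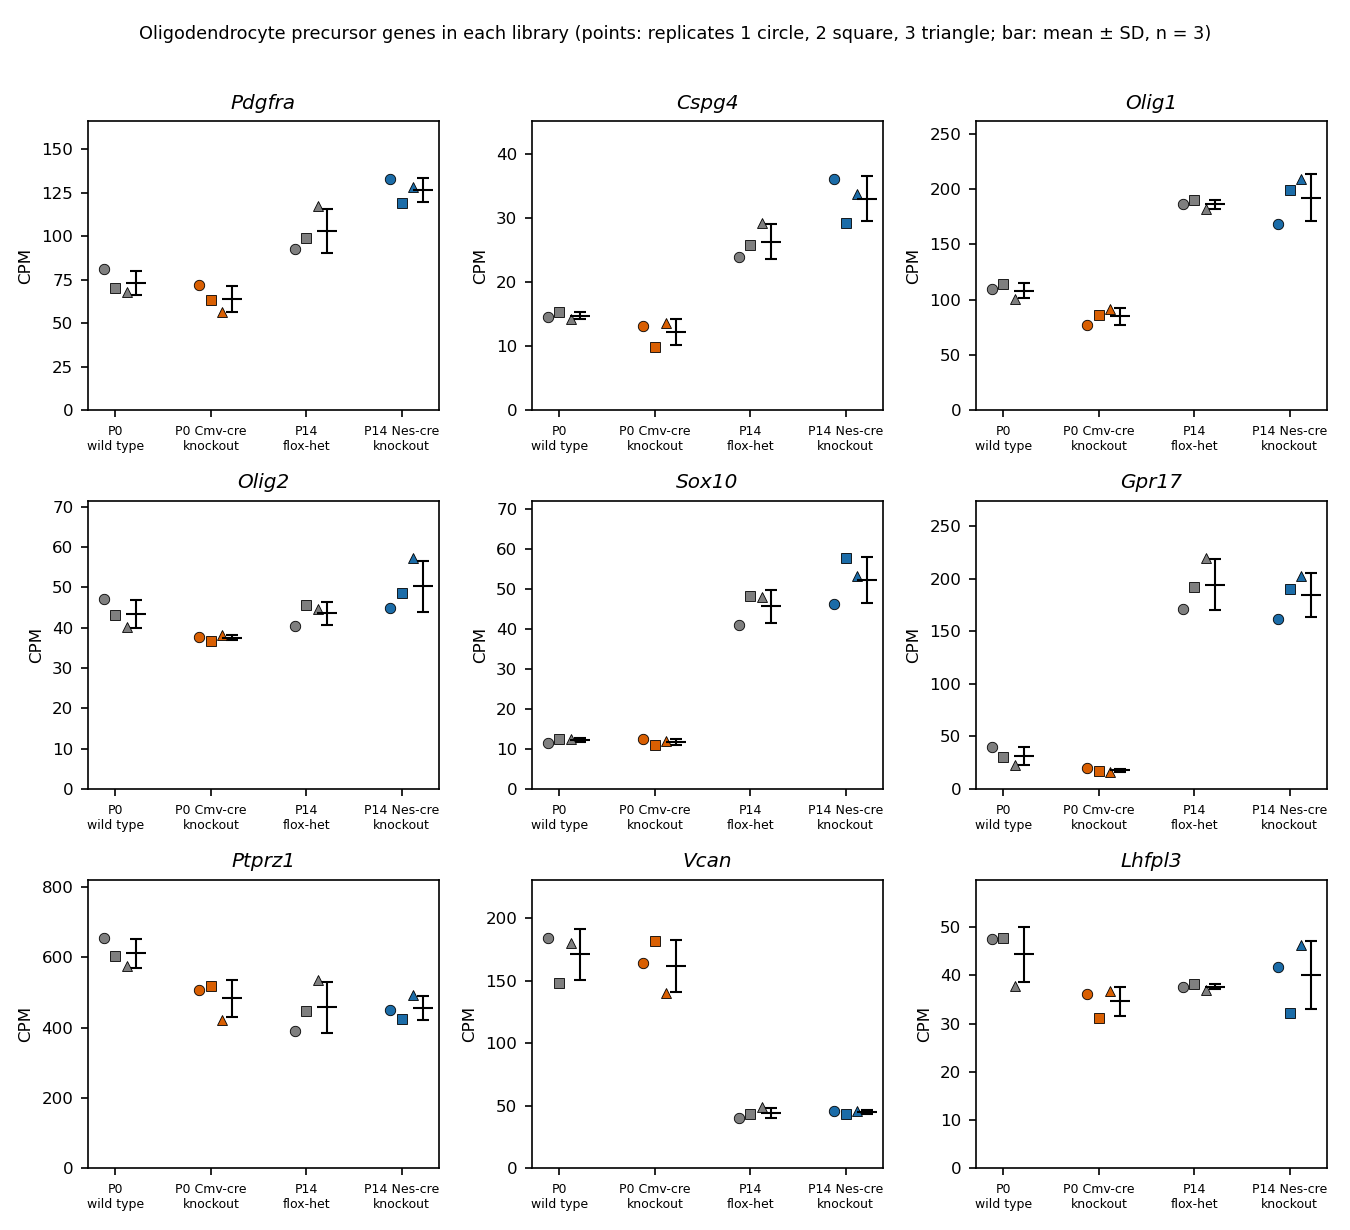
CPM of each of the 9 genes in every library, 1 panel per gene, with knockouts and controls of the P0 forebrain and P14 hippocampus; points are mice and bars are mean ± SD, with CPM scaled within each context. At P0 the knockout points of 6 genes lie below all wild-type points, and at P14 those of Pdgfra and Cspg4 lie above all control points.

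Gpr17, the receptor that marks precursors about to differentiate, had the largest fitted difference of the 9. The gene is at chr18:31942997-31949636. Its P0 knockout libraries held 19.6, 17.5 and 16.3 CPM, and the wild types 40.3, 30.6 and 22.9. The groups did not overlap, and the wild-type mice spread far more than the knockouts, with the lowest wild type in the second number series. The log2 fold change was -0.81 (SE 0.18, 95% interval -1.20 to -0.41), a fitted level 42.8% below the wild type, with an unadjusted p of 0.00096 and an adjusted p of 0.0659. When the reads of the strand columns were summed instead, it was -0.75 with an adjusted p of 0.0897.

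Of the lineage's transcription factors, Olig1 showed the clearest gap. Its levels were 76.8, 86.4 and 91.7 CPM in the knockouts and 109, 114 and 101 CPM in the wild types, with no overlap. The log2 fold change was -0.35 (SE 0.09, interval -0.53 to -0.16, adjusted p 0.0746). Olig2, which specifies the lineage, stood at 37.6, 36.8 and 38.2 CPM in the knockouts against 47.2, 43.1 and 40.1 CPM in the wild types. The knockouts were tightly grouped just under the lowest wild type, and the log2 fold change was -0.21 (SE 0.09, adjusted p 0.291). Sox10 was at 12.4, 10.9 and 12.1 CPM in the knockouts and 11.6, 12.4 and 12.5 CPM in the wild types. Its groups overlapped (log2 fold change -0.05, interval -0.33 to 0.24).

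Of the receptors and surface proteoglycans, Ptprz1, a receptor phosphatase that carries chondroitin sulfate, was the most abundant per library. It held 507, 519 and 422 CPM in the knockouts and 656, 602 and 575 CPM in the wild types. The groups did not overlap, with replicate 3 lowest in each genotype, and the log2 fold change was -0.34 (SE 0.09, interval -0.53 to -0.15, adjusted p 0.0769). Pdgfra, the receptor for PDGF-A, was at 71.7, 63.4 and 56.4 CPM in the knockouts and 81.2, 70.3 and 68.2 CPM in the wild types. One knockout exceeded 2 wild types, and the log2 fold change was -0.20 (SE 0.10, interval -0.42 to 0.02, adjusted p 0.364). Cspg4 stood at 13.1, 9.85 and 13.6 CPM against 14.6, 15.3 and 14.3 CPM, separated by a narrow gap apart from the low second knockout (-0.27, SE 0.14, adjusted p 0.382).

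Lhfpl3, a tetraspan membrane protein enriched in precursors, had 36.1, 31.2 and 36.7 CPM in the knockouts and 47.5, 47.8 and 37.7 CPM in the wild types. The third wild type was only just above the highest knockout, and the log2 fold change was -0.35 (SE 0.11, adjusted p 0.144). Vcan had 164, 182 and 140.4 CPM in the knockouts and 184, 148 and 180.4 CPM in the wild types, which overlapped (-0.08, interval -0.30 to 0.15). For the 6 genes without overlap the exact two-sided permutation p was 0.1, the smallest that 3 against 3 allows; it was 0.3 for Pdgfra, 0.5 for Sox10 and 0.6 for Vcan. Counted by mouse, the 3 knockouts were below all wild types for 6, 8 and 8 of the 9 genes and above all of them for none. Of all genes tested, 30.6%, 31.3% and 32% were below all wild types in these 3 mice.

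Which of these were called changed in fits that treat the number series otherwise, as it did with DESeq2 or without a filter. The fit to the first series also has fewer libraries, and these changes cannot be told apart. In the 4 libraries of the first series alone, 8 of 9 genes were below 0 and 4 were called: Gpr17 (-0.93, adjusted p 4.07e-05), Olig1 (-0.45, 0.000227), Lhfpl3 (-0.49, 0.0008) and Ptprz1 (-0.29, 0.000916), in a fit that called 2107 genes, or 12.9% of those tested. With the series as a term in the 6-library fit, Gpr17 (-0.78, adjusted p 0.0122), Ptprz1 (-0.34, 0.0154) and Olig1 (-0.35, 0.0422) were called, in a fit that called 465 genes, or 2.87%. The pair of libraries in the second series has no replicate and gives no test; there all 9 genes were below 0, from -0.48 for Gpr17 and -0.44 for Ptprz1 to -0.04 for Lhfpl3, beside 49.5% of all genes tested.

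In the P14 hippocampus no member passed the test either, where 1.99% of 17208 genes were called, but here 7 of the 9 fitted fold changes were above 0, with Gpr17 and Ptprz1 below it (Ptprz1 above it with upper-quartile scaling or no filter), where 51.5% of all genes were below 0. The median was 0.09, beside -0.007 over all genes. It was 0.012 without knockout replicate 3 and 0.13 without knockout replicate 1, with 4 and 0 of the 9 below 0, and 0 of the 9 were below 0 without control replicate 3. Pdgfra and Cspg4 were the 2 genes with every knockout above every control, a pattern of 10.3% of genes, and an unadjusted p under 0.05 with a higher level was reached by 3 of the 9, against 7.84% of genes. DESeq2 called 0 of the 9 as well, and 3.1% of all genes.

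Pdgfra held 133, 119 and 128 CPM in the Nes-cre knockouts and 92.6, 99.0 and 117 CPM in the controls. The third control came close to the lowest knockout, and the log2 fold change was 0.30 (SE 0.09, interval 0.11 to 0.49, unadjusted p 0.00409, adjusted p 0.101). Cspg4, the other classical surface marker of dividing precursors, had 36.1, 29.3 and 33.8 CPM against 23.9, 25.9 and 29.2 CPM. The lowest knockout was just above the highest control, and the log2 fold change was 0.33 (SE 0.10, interval 0.11 to 0.55, unadjusted p 0.00651, adjusted p 0.128). Without the third control both genes were called, as 2 of 9 members in a fit that called 1808 genes, or 10.3% of those tested.

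The transcription factors at P14 overlapped between genotypes. Olig2 had 44.8, 48.7 and 57.2 CPM in the knockouts and 40.4, 45.6 and 44.6 CPM in the controls (0.20, SE 0.10, adjusted p 0.327). Sox10 had 46.2, 57.7 and 53.1 CPM against 40.9, 48.3 and 47.9 CPM (0.20, SE 0.10, adjusted p 0.353). In both, the lowest knockout fell among the controls and the other 2 stood above them. Olig1 had 169, 199 and 209 CPM against 187, 190.0 and 182 CPM, a log2 fold change of 0.05 with an interval from -0.13 to 0.22.

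Gpr17 at P14 had 162, 189.8 and 203 CPM in the knockouts and 171, 192 and 219 CPM in the controls, spread alike in both genotypes (-0.07, interval -0.29 to 0.15, adjusted p 0.803). Ptprz1 had 450.4, 424 and 492 CPM against 389.9, 446 and 535 CPM, with all knockouts inside the range of the controls (-0.005, interval -0.23 to 0.22). Vcan had 45.4, 43.6 and 46.0 CPM against 40.0, 43.7 and 48.6 CPM (0.03, interval -0.16 to 0.21). Lhfpl3 had 41.7, 32.3 and 46.3 CPM against 37.6, 38.2 and 37.1 CPM. Its controls were almost equal while the knockouts lay on both sides of them (0.09, interval -0.15 to 0.33).

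**Figure D3:**
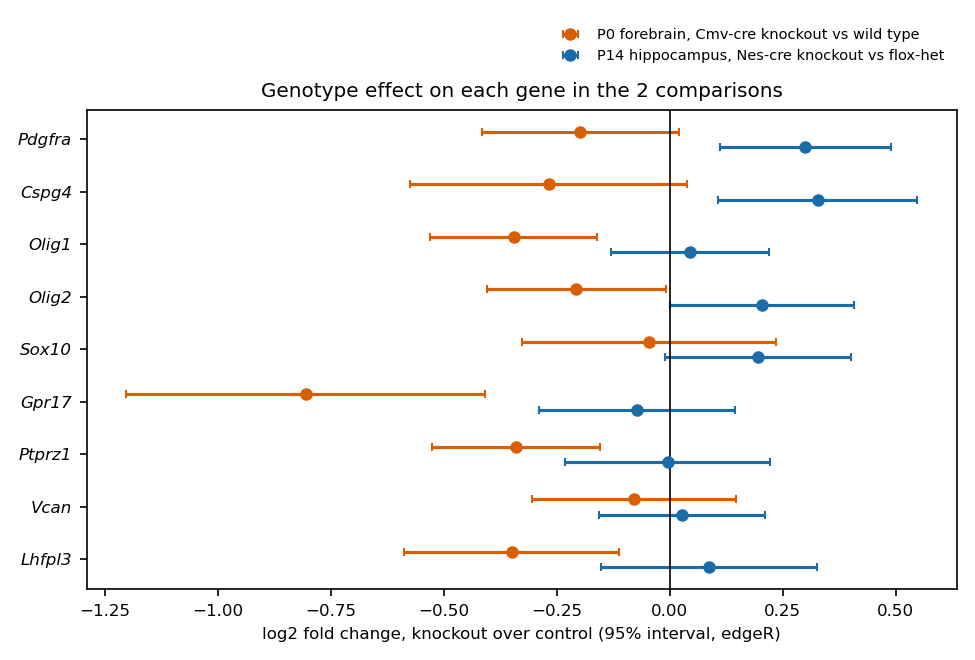
Log2 fold change of knockout over control for each of the 9 genes in the P0 forebrain and the P14 hippocampus, with 95% intervals from the edgeR fit. All 9 P0 points are below 0, with Gpr17 lowest at -0.81, and 7 of the 9 P14 points are above 0.

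The difference between the genotype effects, P14 minus P0, was tested as the interaction in 1 fit to all 12 libraries. It was above 0 for all 9 genes, where 51.3% of all genes were below 0, with a median of 0.39 beside -0.01 over all genes, and none of the 9 was called where 1.79% of 18189 genes were. At an unadjusted p under 0.05, 7 of the 9 were higher, against 8.42% of genes, and DESeq2 called Pdgfra and Gpr17, 2 of the 9, and 2.92% of all genes. Gpr17 had the largest value at 0.71 (SE 0.24, adjusted p 0.186), followed by Cspg4 at 0.58 (SE 0.17, adjusted p 0.0965) and Pdgfra at 0.48 (SE 0.14, adjusted p 0.0780). Lhfpl3 stood at 0.42, Olig2 at 0.39, Olig1 at 0.37 and Ptprz1 at 0.32, with adjusted p from 0.138 to 0.286. Sox10 at 0.23 and Vcan at 0.09 had the smallest differences. Tissue, age, Cre line and control genotype differ together between the contexts and cannot be told apart in this term.

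How far the 9 genes moved together from mouse to mouse was described by the correlation of each gene with the mean of the other 8 standardized genes, over the 6 libraries of a context. At P0, Pearson r was 0.97 for Gpr17, 0.94 for Olig2, 0.88 for Ptprz1, 0.85 for Lhfpl3, 0.79 for Pdgfra, 0.72 for Olig1 and 0.61 for Cspg4, but 0.15 for Sox10 and 0.13 for Vcan. At P14 it ran from 0.30 for Olig1 to 0.85 for Olig2, with Gpr17 at 0.45. These values share libraries, depth and the genotype difference, and are given as a description over 6 mice each.

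Other genes of the precursor stage were read from a fixed list. Over all genes, 9.17% were lower and 6.95% higher at an unadjusted edgeR p under 0.05 at P0. At P14 7.4% were lower and 7.84% higher, and these shares apply to all lists below. At P0, 0 of 21 tested were called and 16 were below 0, with a median of -0.17 and 6 at an unadjusted p under 0.05, all lower. Ednrb, an endothelin receptor on glial progenitors, was at -0.32 (adjusted p 0.0868), Nxph1 at -0.31 (0.102) and Pcdh15 at -0.37 (0.126). At P14, 2 of 22 rose and none fell, with a median of 0.05 and 4 higher and 2 lower at an unadjusted p under 0.05. Xylt1, the enzyme that starts chondroitin sulfate chains, rose by 0.43 (adjusted p 0.0352). The SOX factor Sox5, which acts with Sox6 to keep precursors undifferentiated, rose by 0.36 (adjusted p 0.0470).

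Genes of committed and premyelinating cells came next in the lineage. At P0, 0 of 12 tested were called and 10 were below 0, with a median of -0.20 and 2 at an unadjusted p under 0.05, 1 in each direction. Myrf, the factor that turns on myelin genes, was at -0.78 with an SE of 0.34 (adjusted p 0.281). At P14, 1 of 15 fell and 12 were below 0, with a median of -0.23 and 5 lower and 0 higher at an unadjusted p under 0.05. The one that fell was Sema5a, a guidance molecule, by 0.51 on the log2 scale (adjusted p 0.00725), and Tcf7l2, a Wnt effector of newly formed oligodendrocytes, was at -0.54 (adjusted p 0.146). Myelin and mature oligodendrocyte genes showed 0 of 10 called at P0, with a median of -0.26 and 2 lower at an unadjusted p under 0.05. At P14 all 16 were below 0 with a median of -0.35 and 0 were called, with 1 lower at an unadjusted p under 0.05, where 51.5% of all genes were below 0. Their summed level varied widely within each group, from 3052 to 6148 CPM in knockouts and from 4367 to 6518 CPM in controls, which overlapped.

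**Figure D4:**
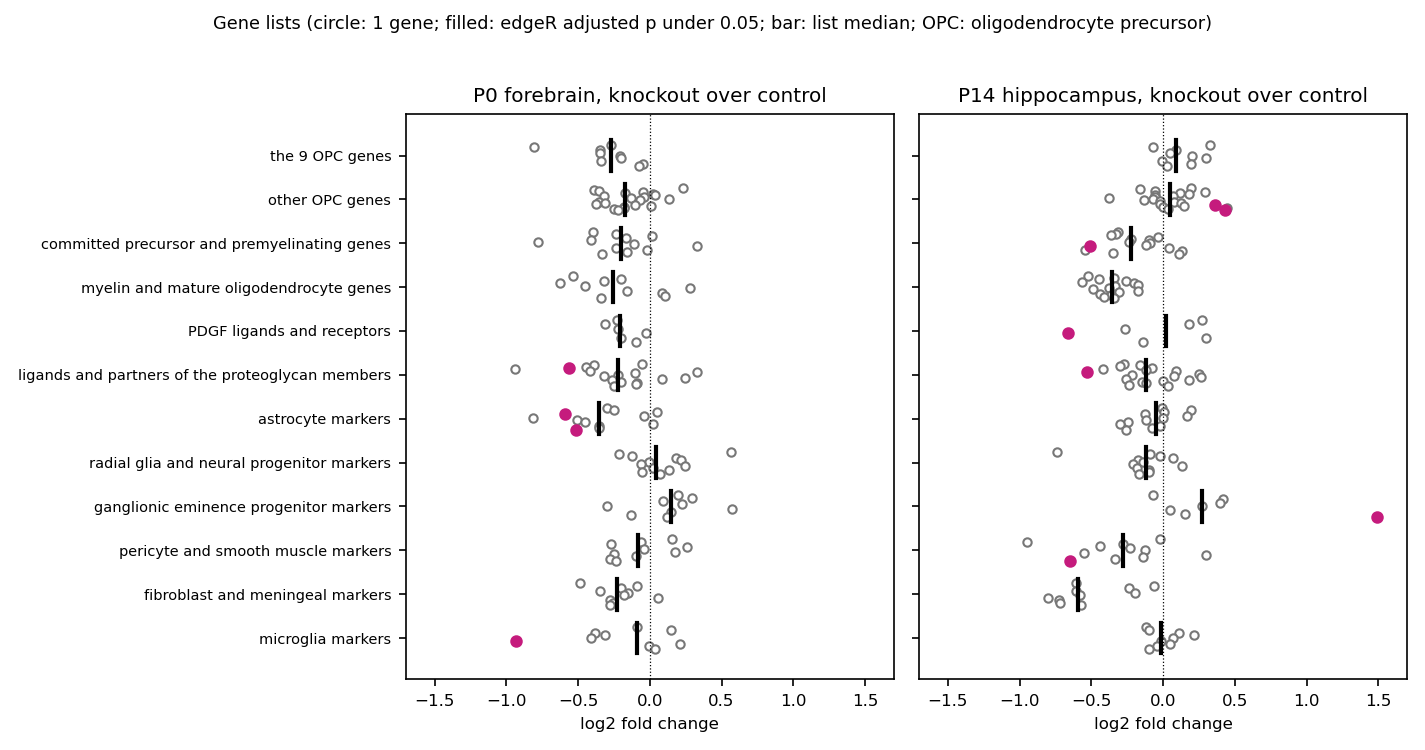
Log2 fold change of knockout over control for every tested gene of 12 lists, in each context; circles are genes, filled where called, and bars are list medians. At P0 every list but the radial glia and ganglionic eminence markers has a median below 0, the 9 genes and the other lineage lists among them. At P14 the 9 genes, the other precursor genes and the ganglionic eminence markers have medians above 0. The PDGF list, which includes Pdgfra itself, has a median of 0.019, with 3 genes above 0 and 3 below. The committed and myelin lists have medians below 0, as do the remaining lists.

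The signals that act on the 9 genes' products were read in the same way. Of 6 PDGF ligands and receptors, 1 of them the member Pdgfra, 0 were called at P0. All 6 were below 0 with a median of -0.21, and 0 reached an unadjusted p under 0.05. Pdgfa, the main ligand of Pdgfra in brain, was at -0.23 (adjusted p 0.314). At P14, 1 of 6 fell: Pdgfd, a ligand of the other receptor Pdgfrb, by 0.66 (adjusted p 0.0161). At an unadjusted p under 0.05, 3 of the 6 were higher, Pdgfra among them, and 1 lower. Pdgfa stood at 0.27 (adjusted p 0.103) beside 0.30 for its receptor. Among ligands and partners of Ptprz1 and the matrix proteoglycans, 1 of 17 fell at P0: Cntn1, the axonal contactin that binds Ptprz1, by 0.56 (adjusted p 0.0203). An unadjusted p under 0.05 was reached by 8 lower and 1 higher of these 17. L1cam was at -0.32 (adjusted p 0.0758), and Hapln1, the link protein that fixes Vcan to hyaluronan, at -0.94 with an SE of 0.28 (adjusted p 0.125). At P14, 1 of 19 fell, the link protein Hapln4, by 0.53 (adjusted p 0.0269), and Hapln1 was at -0.42 (adjusted p 0.0714). At an unadjusted p under 0.05, 3 of these 19 were lower and 2 higher.

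Regulators upstream of the lineage were read last. Of 13 regulators of oligodendrocyte differentiation, 0 were called at P0 (median 0.01, 1 at an unadjusted p under 0.05). The list mixes inhibitors with Tcf4, Hdac1 and Hdac2, which are not simply inhibitors. At P14, 1 of the 13 rose: Lingo1, a neuronal and glial membrane protein that restrains myelination, by 0.34 (adjusted p 0.0206). The list as a whole lay the other way at P14, with 10 of 13 below 0 and a median of -0.16. As it is mixed, this does not describe inhibitors as a class. At an unadjusted p under 0.05, 2 were lower and 1 higher. Of 11 genes of the Sonic hedgehog pathway, which induces Olig2 in ventral progenitors, 0 were called in either context, with medians of 0.05 and 0.07; the unadjusted p was under 0.05 for 2 of them at P0 and 2 at P14. In the LHFPL family, which includes the member Lhfpl3, 0 of 5 were called at P0. At an unadjusted p under 0.05, 2 were lower there, 1 of them Lhfpl3. At P14 1 of 6 fell, Lhfpl1, by 1.28 with an SE of 0.31 (adjusted p 0.0472). Its levels were low, at 0.702, 0.607 and 0.896 CPM in knockouts and 1.97, 1.88 and 1.48 CPM in controls. At an unadjusted p under 0.05, 2 of the 6 were lower and 1 higher at P14.

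Markers of other cells moved in part with the 9 genes. At P0, 2 of 12 astrocyte markers fell, Slc4a4 by 0.52 (adjusted p 0.0390) and Aqp4 by 0.59 (adjusted p 0.0416), 10 were below 0, 8 were lower at an unadjusted p under 0.05, the median was -0.36, and the summed level was 779 to 791 CPM in knockouts against 852 to 1087 CPM in wild types. Of the other P0 lists, radial glia markers had 0 of 12 called and a median of 0.05, ganglionic eminence progenitor markers 0 of 9 called, a median of 0.15 and sums of 389 to 418 against 348 to 370.3 CPM. Of the cells that share single members, pericyte markers had 0 of 10 called, 7 below 0 and a median of -0.08. Their sums were 164 to 209 against 217 to 223 CPM, which did not overlap. The largest part of these sums was Rgs5, at 95.4, 105 and 70.9 CPM in knockouts and 108, 111 and 108 CPM in wild types. Fibroblast markers had 0 of 10 called, 9 below 0, a median of -0.23 and sums of 137 to 212 against 178 to 216 CPM, which overlapped. One microglial marker of 9, P2ry12, fell by 0.93 (adjusted p 0.0368), one neuronal marker of 11, Slc17a7, fell by 0.54 (adjusted p 0.0368), and one endothelial marker of 8, Slc2a1, rose by 0.58 (adjusted p 0.0267). The part of these cells in the P0 values of the 9 genes was not tested.

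At P14 the astrocyte and radial glia lists had 0 of 12 called each, with medians of -0.05 and -0.12, and astrocyte sums of 6836 to 7067 CPM in knockouts against 7098 to 7206 CPM in controls. Pericyte markers, which share Cspg4, had 1 of 11 fall, Vtn by 0.65 (adjusted p 0.00892), with a median of -0.28. Their sums were 252 to 335.6 against 336.3 to 363 CPM, separated by a narrow gap. Fibroblast markers, which share Pdgfra, were all below 0 with a median of -0.59, 0 of 10 called and sums of 93.8 to 162 against 144 to 184 CPM. Both lists had medians below 0, and Pdgfra and Cspg4 had fold changes above it. The part of these cells in the P14 values of the 9 genes was not tested. Of 7 ganglionic eminence markers 1 rose, Nkx2-1 by 1.49 (adjusted p 0.0388). Its levels were low, at 1.83, 2.95 and 1.55 CPM in knockouts and 0.638, 0.574 and 1.04 CPM in controls. Of 11 neuronal markers 1 fell, Gad1 by 0.35 (adjusted p 0.0284). None of the 8 endothelial or 9 microglial markers was called, with medians of -0.22 and -0.02. No marker of any list was at 0 in all libraries of a group. In the marker lists with none called by edgeR, an unadjusted p under 0.05 was reached at P0 by 3 of 12 radial glia markers, 1 lower and 2 higher. It was reached there by 2 of 9 ganglionic eminence markers, higher, and by 2 of 10 pericyte and 2 of 10 fibroblast markers, lower. Over all genes 9.17% were lower and 6.95% higher. At P14 it was reached by 2 of 12 astrocyte, 1 of 12 radial glia, 3 of 10 fibroblast and 4 of 8 endothelial markers, all lower. Of 9 microglial markers 1 was higher. Over all genes 7.4% were lower and 7.84% higher.

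The genes most like the 9 were sought over the 12 libraries, by the Pearson correlation of each gene's deviation from its context mean with the mean standardized deviation of the 9. Of 10156 genes with a mean log2 CPM of at least 3 in both contexts, the 5 highest were Grin3a (r = 0.96), Samd12 (0.95), Wdr35 (0.94), Spag6l (0.93) and Pdzd2 (0.92). Grin3a, an NMDA receptor subunit, fell at P0 by 0.61 (adjusted p 0.00566) and was at 0.30 at P14 (adjusted p 0.179). Pdzd2 fell at P0 by 0.55 (adjusted p 0.0459). Samd12 at -0.36 (adjusted p 0.0516), Spag6l at -0.58 (0.0647) and Wdr35 at -0.13 (0.493) were not called at P0. All 5 were chosen for following the 9 genes in these libraries, so their direction at P0 is no separate evidence. The points share libraries and genotype, and the correlations are descriptions.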

How the data were processed

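RNA from 12 mice was measured by RNA sequencing. Per the labels' protocols, RNA was purified with Trizol, treated with DNase I and made into Illumina TruSeq libraries, read in pairs. The deposited values are counts of reads per Ensembl gene on GRCm38, annotation release 102, per the file names; the submitters' processing notes name STAR 2.7.5a and edgeR 3.12. The authors' unstranded count column was used. Gene symbols were looked up in GENCODE vM21 for 55227 of 55487 identifiers, and 192 of 193 listed symbols matched.

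Using R 4.3.3 and edgeR 4.0.16, knockouts and controls of 1 context were fitted together (filterByExpr, TMM, estimateDisp, robust glmQLFit, glmQLFTest, Benjamini-Hochberg over all genes, threshold 0.05). The interaction and the contrast of control groups came from 1 fit to all 12 libraries. The steps were tested on simulated data. Log2 CPM used a prior count of 2. Exact permutation tests were two-sided. Intervals cover the spread between mice and counting error, and read counts are not independent molecules. Mice of 1 group differed beyond counting noise (chi-square per degree of freedom 2.93 to 17.5), so each library was 1 sample.

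The genes and lists were chosen with earlier results of these data known. Named were the 9 genes, Auts2, up to 4 genes per list and context with the smallest p, and the 5 genes most like the 9; any other gene was picked with its values in view. The alternatives were RLE and upper-quartile scaling, DESeq2 1.42.0, no filter, 10 counts in every library, non-robust fitting, the sum of the strand columns, 1 fit on all libraries or only the controls, the number series as a term or only the first series, and each library left out. Exon 7 and isoforms were not analysed here.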

Additional observations from a re-analysis of the deposited data

Results flagged for a closer look

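In 5 genes of the fixed lists the genotype effect differed between the contexts by the interaction test (edgeR, P14 minus P0, log2). It was adjusted over 18189 genes, of which 1.79% were called. The lists, with the 9 genes, held 192 matched symbols. No member of the 9 was among the 5, and the causes were not tested. Cntn1, the contactin that binds Ptprz1, differed by 0.47 (adjusted p 0.0497), from -0.56 at P0 to -0.08 at P14. L1cam, an adhesion molecule of axons, differed by 0.57 (adjusted p 0.0433), from -0.32 to 0.27. P2ry12, the purinergic receptor of resting microglia, differed by 0.90 (adjusted p 0.00654), from -0.93 to -0.02. Slc17a7, the vesicular glutamate transporter of cortical neurons, differed by 0.56 (adjusted p 0.0334), from -0.54 to 0.04. Neurod2, a transcription factor of excitatory neurons, differed by -0.52 (adjusted p 0.0433), from 0.44 to -0.06.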

How the results depend on the processing

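No paired analysis was possible because the replicate numbers were given in accession order and pair no libraries. Direction was kept in 150 of 153 values of the 9 genes at P0, 116 of 126 at P14, 179 of 180 for the interaction and 177 of 180 for the control groups. The members called by genotype, 0 of 9 in each comparison, depended on the settings. At P0, DESeq2, no filter and the number series as a term called 3 each (Olig1, Gpr17 and Ptprz1), and the 4 libraries of the first series 4; leaving out 1 library gave 0 to 2, with Olig1 and Ptprz1 called without knockout replicate 3 and Gpr17 without wild-type replicate 3. At P14, no filter called 2, and leaving out 1 library gave 0 to 2 (Pdgfra and Cspg4 without control replicate 3). For the interaction, DESeq2 and no filter called 2 each and the series term 1 (Pdgfra); leaving out 1 library gave 0 to 3, the most without P14 control replicate 3.

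Genes called at P0 (147) were 382 with DESeq2, 625 without a filter, 50 with non-robust fitting, 84 on the strand sum, 284 in 1 fit on all 12 libraries, 465 with the series term, 2107 in the first series and 1 to 775 with 1 library left out. At P14 (342) they were 534 with DESeq2, 814 without a filter and 104 to 1808 with 1 library left out, and for the interaction (326) 531, 646 and 125 to 905. The control contrast called 11642 genes and 6 of 9 members, and 6 or 7 members under every alternative run.

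Some values near 0 changed sign. At P0, Vcan was at 0.063 in the first series, and with 1 library left out it ran from -0.17 to 0.016 (highest without knockout replicate 3) and Sox10 from -0.078 to 0.013 (highest without knockout replicate 2). At P14, Ptprz1 was at 0.0067 with upper-quartile scaling and 0.0025 without a filter. With 1 library left out, P14 values ran from -0.10 to 0.12 for Ptprz1, from -0.15 to 0.025 for Gpr17, from -0.034 to 0.10 for Vcan, from -0.019 to 0.13 for Olig1 and from -0.026 to 0.22 for Lhfpl3. The interaction of Vcan ran from -0.0030 to 0.18, and the control contrast of Lhfpl3 from -0.13 to 0.034, with 0.020 without a filter. The causes were not tested. Having 3 mice per group, and 1 pair in the second series, limits the precision; every member had at least 111 counts in each library.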

Other observations

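Counts of Gpr17, which marks the committed stage, were also taken per count of Pdgfra, which marks precursors, within each library. This ratio was chosen after the values were seen and is given with no test. Whether it follows a balance of stages was not tested. At P0 it was 0.273, 0.276 and 0.289 in the knockouts and 0.496, 0.436 and 0.336 in the wild types. At P14 it was 1.22, 1.59 and 1.58 in the knockouts and 1.85, 1.93 and 1.87 in the controls. The ratio was lower in every knockout than in every control of its context. How many other pairs of genes separate in this way was not counted. The log2 fold changes were -0.81 for Gpr17 and -0.20 for Pdgfra at P0, and -0.07 and 0.30 at P14. Gpr17 per Olig1 overlapped between genotypes in both contexts, from 0.178 to 0.255 against 0.227 to 0.368 at P0 and from 0.953 to 0.968 against 0.917 to 1.20 at P14.

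Of the 15 genes of committed and premyelinating cells, 3 were too low at P0 for the filter. Enpp6, an enzyme of newly forming oligodendrocytes, had 2, 1 and 4 counts in the knockouts and 11, 14 and 11 counts in the wild types. In the fit without a filter its log2 fold change was -2.31 (SE 0.65, edgeR adjusted p 0.0262), on few counts. Neu4 had 2, 2 and 1 counts against 6, 10 and 2 (adjusted p 0.392 in that fit), and Nkx6-2 had 3, 4 and 15 against 1, 6 and 0 (adjusted p 0.417). These genes were singled out after their values were seen.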
